A study of Rattus norvegicus with 6 samples.

Results

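The miR-30 family was followed in small RNA libraries of fibroblasts from rat sciatic nerve. All rows of the deposited tables named as an arm of rno-miR-30a, miR-30b, miR-30c (with miR-30c-1 and miR-30c-2), miR-30d or miR-30e were taken, whatever their level, which gave 11 arms among 1071 rows. The most abundant were rno-miR-30a-5p, rno-miR-30c-5p and rno-miR-30d-5p, and the prefix for rat (rno) is left out from here on. The study compared 3 libraries of RNA from the extracellular vesicles of the fibroblasts (EV, which the labels' protocol calls exosomes) with 3 libraries of RNA from inside the cells (Intracellular). All cells were wild type and untreated, and the labels place every library in a single batch. The age and strain of the rats, and whether replicates were separate cultures or animals, are points not given in the sources used here. All p-values below therefore measure the spread between single libraries, which may be technical.

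A miRNA gene is transcribed into a hairpin, and each side of the hairpin can give a mature strand, called the 5p or the 3p arm. One arm of a hairpin is usually loaded into the Argonaute protein more often than the other, and it finds its targets through the seed, the stretch near its 5′ end. The miR-30 5p arms are widely expressed, are known in the heart to repress Ctgf, the connective tissue growth factor made by fibroblasts, and are known to restrain the mesenchymal transition of epithelial cells.

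The RefSeq table of rat miRNAs (build GRCr8) held 6 of the 11 arms, and each was identical to the sequence in the deposited table. The 3 matched 5p arms are shown because they carry the same seed, bases 2 to 8, in capitals.
miR-30a-5p: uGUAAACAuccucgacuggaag
miR-30e-5p: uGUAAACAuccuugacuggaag
miR-30c-5p: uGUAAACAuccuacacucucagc
miR-30a-5p and miR-30e-5p differ only by C13U, counted from 1 at the 5′ end with the base of miR-30a-5p first. miR-30c-5p matches miR-30a-5p at 17 of their first 22 positions.

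The matched 3p arms are shown, with the same bases in capitals, because they fall under 2 other seeds.
miR-30a-3p: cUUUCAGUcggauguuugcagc
miR-30c-1-3p: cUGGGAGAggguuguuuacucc
miR-30c-2-3p: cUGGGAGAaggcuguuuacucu
miR-30c-1-3p and miR-30c-2-3p differ by G9A, U12C and C22U, counted the same way. The hairpins of Mir30a and Mir30c2, from the same RefSeq table, show how the arms of a pair sit in their precursor, with the mature arms in capitals.
Mir30a: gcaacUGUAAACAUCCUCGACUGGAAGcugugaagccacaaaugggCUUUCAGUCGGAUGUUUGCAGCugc
Mir30c2: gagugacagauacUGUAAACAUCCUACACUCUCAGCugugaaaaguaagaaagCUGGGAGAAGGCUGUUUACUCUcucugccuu
miR-30c-5p is made from both the Mir30c1 and the Mir30c2 hairpin, so its level cannot be assigned to either. In the same RefSeq build Mir30c1 and Mir30e neighbour each other within the span of Nfyc, a subunit gene of the transcription factor NF-Y. Mir30b and Mir30d neighbour each other within an uncharacterised long noncoding RNA.

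The EV libraries held 81211 to 105578 counts and the Intracellular libraries 1839047 to 8859302, so that 1 count stood for 9.47 to 12.3 counts per 1000000 (CPM) in EV and for 0.113 to 0.544 CPM in Intracellular libraries. edgeR's quasi-likelihood test covered 328 miRNAs and, with TMM scaling, which assumes that most miRNAs do not differ, called 84 higher and 56 lower in EV. With total-count scaling, which compares CPM directly, it called 107 higher and 3 lower, and the overall median moved by 0.61 on the log2 scale. A call is a Benjamini-Hochberg adjusted p under 0.05. Intracellular replicate 1 stood apart with a TMM factor of 0.557, where the remaining Intracellular libraries had 0.935 and 0.963. The 6 mesenchymal miRNAs used to check the cell type took 30.2% to 33.8% of EV counts and 32.6% to 33.0% of Intracellular counts. Of these, 2 were called higher and 3 lower with TMM, and 2 higher and 0 lower with total counts. The higher ones were miR-152-3p (33332 ± 11552 CPM in EV, 7535 ± 1989 CPM in Intracellular libraries) and miR-214-3p. The lower ones were miR-145-5p, miR-199a-3p and miR-199a-5p, while the most abundant, miR-143-3p, was not called. Of 3 liver and serum miRNAs 1 was called higher, and their sum was 1.16% to 1.41% in EV and 0.0397% to 0.0476% in Intracellular libraries. The difference in this sum was mostly that of the called miR-122-5p (12119 ± 1398 CPM in EV, 195 ± 130 CPM in Intracellular libraries). miR-192-5p (225 CPM in EV, 135 CPM in Intracellular libraries) and miR-194-5p (165 and 101 CPM) were not called with either scaling. Of the erythroid miRNAs present (3), 2 were called higher, with a sum of 0.0152% to 0.0222% in EV and 0.000226% to 0.000598% in Intracellular libraries, while miR-144-3p was at 0 in EV. All 4 epithelial miRNAs were at 0 in EV. Neuronal miRNAs took 0.220% to 0.260% in EV and 0.158% to 0.328% in Intracellular libraries, leukocyte miRNAs 0.0217% to 0.0265% and 0.00636% to 0.0170%, endothelial miRNAs 0.0260% to 0.0436% and 0.0141% to 0.0390%, and those of myelinating glia 0% to 0.00474% and 0.000816% to 0.00201%. Muscle miRNAs took 0.0111% to 0.0246% in EV and 0.00897% to 0.0182% in Intracellular libraries. Of this list 2 were tested, of which miR-206-3p was called higher (85.4 ± 47.8 CPM in EV, 2.76 ± 0.913 CPM in Intracellular libraries) and miR-499-5p lower. The part of RNA from other cell types in the miR-30 values was not tested.

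The 11 arms summed to 0.704% ± 0.0268 of the EV libraries and to 0.680% ± 0.25 of the Intracellular libraries (SD, n = 3). By library the share was 0.676%, 0.729% and 0.707% in EV replicates 1, 2 and 3, and 0.395%, 0.785% and 0.860% in Intracellular replicates 1, 2 and 3. Intracellular replicate 1 was the lowest of the 6 libraries and the other Intracellular libraries were the highest, so that the EV libraries lay between them. In bulk RNA of this kind, fewer cells of a type and less RNA per cell cannot be told apart. Without the 10 most abundant other miRNAs in the denominator, the share was 1.91%, 2.02% and 2.09% in EV and 1.87%, 2.83% and 3.03% in Intracellular libraries. On this scale every EV library was just above Intracellular replicate 1 and below Intracellular replicates 2 and 3, so the overlap of the groups rested on Intracellular replicate 1.

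The 5p arms, which carry the shared seed, summed to 5696 ± 348 CPM in EV and to 6013 ± 2342 CPM in Intracellular libraries (SD, n = 3), and the groups overlapped. The 3p arms summed to 1346 ± 156 CPM in EV and to 788 ± 170 CPM in Intracellular libraries, with no overlap. The 3p arms thus made up 21.7%, 19.2% and 16.5% of miR-30 counts in EV and 15.1%, 11.7% and 9.84% in Intracellular libraries. Every EV library was above every Intracellular one in this share, which does not depend on the scaling of a library. From Intracellular replicate 1 to 3 the share fell while total counts rose (1839047, 3313075 and 8859302). In EV replicates 1, 2 and 3, with 81211, 105578 and 92329 counts, it did not follow the counts. The part of depth in this share was not tested.

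**Figure D1:**
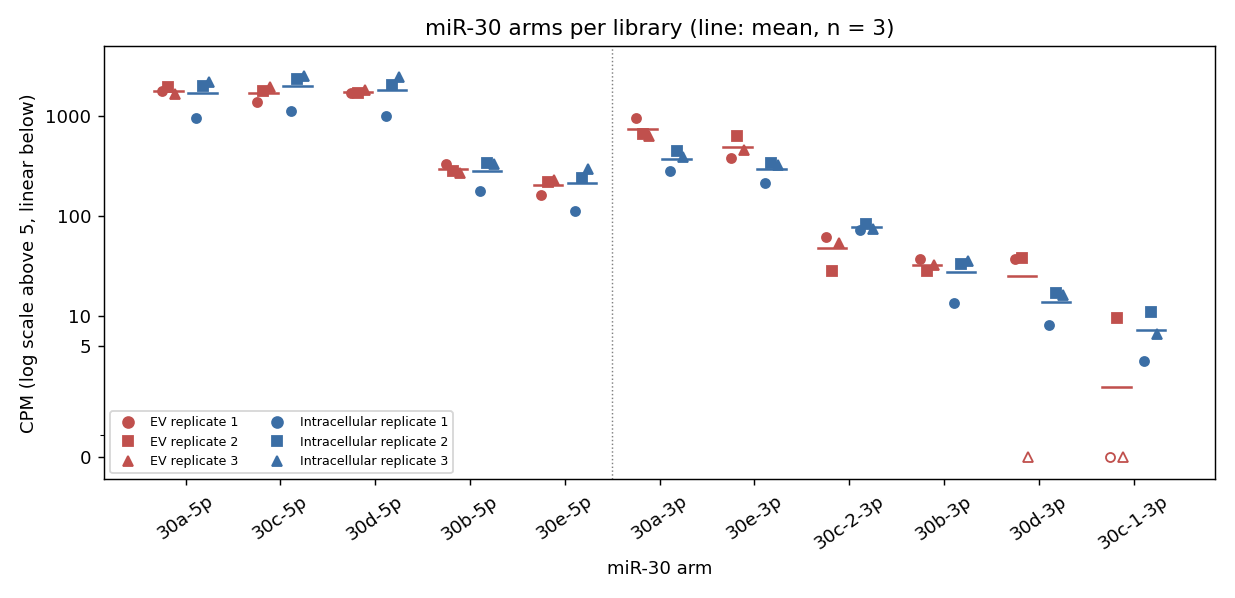
Level of each miR-30 arm in CPM (logarithmic above 5, linear below) in the 3 EV libraries (red, left) and 3 Intracellular libraries (blue, right), with the mean as a line. Open symbols are libraries with 0 counts. For miR-30a-3p and miR-30e-3p every EV library lies above every Intracellular one, for miR-30c-2-3p below, and for the 5p arms the groups overlap.

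The 5p arms of miR-30a, miR-30c and miR-30d led the family at similar levels. miR-30a-5p was at 1761, 1932 and 1646 CPM in EV replicates 1, 2 and 3, and at 945, 1968 and 2184 CPM in Intracellular replicates 1, 2 and 3. miR-30c-5p was at 1367, 1781 and 1950 CPM in EV and at 1126, 2341 and 2497 CPM in Intracellular libraries. miR-30d-5p was at 1675, 1676 and 1809 CPM in EV and at 992, 2049 and 2450 CPM in Intracellular libraries. For each of the 3, Intracellular replicate 1 was the lowest library, Intracellular replicates 2 and 3 were the highest and the groups overlapped.

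With TMM scaling all 3 were called lower in EV. The log2 fold change was -0.80 for miR-30c-5p (SE 0.21, edgeR adjusted p = 0.00496), -0.66 for miR-30d-5p (SE 0.20, edgeR adjusted p = 0.0112) and -0.52 for miR-30a-5p (SE 0.19, edgeR adjusted p = 0.0356). With total counts the same arms had log2 fold changes of -0.22, -0.09 and 0.07 and none was called (edgeR adjusted p = 0.688, 0.874 and 0.906). These lower levels therefore hold relative to the TMM scaling. The call of miR-30a-5p was lost without any single library other than Intracellular replicate 1, in at least 1 of the fits with the filter applied again or with the tested rows kept (edgeR adjusted p up to 0.333). That of miR-30d-5p was lost without EV replicate 1 or 2 or Intracellular replicate 2 or 3 (edgeR adjusted p up to 0.174), and that of miR-30c-5p only without EV replicate 1 and with the tested rows kept (edgeR adjusted p = 0.0515).

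The other 5p arms were lower in level. miR-30b-5p was at 332, 284 and 271 CPM in EV and at 176, 337 and 333 CPM in Intracellular libraries, and miR-30e-5p at 160, 218 and 227 CPM in EV and at 112, 237 and 292 CPM in Intracellular libraries. In both, Intracellular replicate 1 was again the lowest library and the groups overlapped. Their log2 fold changes with TMM were -0.54 (SE 0.22, edgeR adjusted p = 0.0584) and -0.65 (SE 0.27, edgeR adjusted p = 0.0602), neither of which was called. With total counts they were 0.07 and -0.08, also without a call.

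The 3p arms of miR-30a and miR-30e stood higher in EV in CPM. miR-30a-3p was at 948, 663 and 628 CPM in EV and at 282, 442 and 391 CPM in Intracellular libraries, a ratio of means of 2.01. miR-30e-3p was at 382, 635 and 455 CPM in EV and at 215, 334 and 324 CPM in Intracellular libraries, a ratio of 1.68. For both arms the lowest EV library lay above the highest Intracellular one. With total counts miR-30a-3p was called higher (log2 fold change 1.01, SE 0.34, edgeR adjusted p = 0.0202), while miR-30e-3p was not (0.76, SE 0.36, edgeR adjusted p = 0.106). With TMM the changes were 0.35 (SE 0.21, edgeR adjusted p = 0.183) and 0.13 (SE 0.23, edgeR adjusted p = 0.673), and neither was called. In the deposited sequences these arms are identical at 21 of 22 positions, and how reads that fit both were divided is not given in the sources used here, so each single level is uncertain.

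The remaining 3p arms were near the limit of the EV libraries. miR-30c-2-3p had 5, 3 and 5 counts in EV and 134, 276 and 656 in Intracellular libraries, which is 61.6, 28.4 and 54.2 CPM in EV and 72.9, 83.3 and 74.0 CPM in Intracellular libraries. Every EV library was below every Intracellular one, though the 95% Clopper-Pearson intervals of EV replicates 1 (20 to 144 CPM) and 3 (17.6 to 126 CPM) take in all Intracellular levels. That of EV replicate 2 (5.86 to 83.0 CPM) ends just below the highest of them. It was called lower with TMM (log2 fold change -1.38, SE 0.41, edgeR adjusted p = 0.0115) and not with total counts (-0.70, SE 0.53, edgeR adjusted p = 0.367). The call rests on 13 EV counts and was lost without EV replicate 2 (edgeR adjusted p = 0.0700, or 0.0996 with the tested rows kept). It was also lost with limma-voom (limma-voom adjusted p = 0.0700). With a filter on a mean EV count of at least 10, miR-30c-2-3p was not tested. Its pooled level was 46.6 CPM in EV (95% interval 24.8 to 79.6) and 76.1 CPM in Intracellular libraries (71.6 to 80.8). These intervals and the limits below cover counting error only.

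miR-30b-3p had 3 counts in each EV library, or 32.2 CPM pooled (14.7 to 61.2), and 31.8 CPM pooled in Intracellular libraries (28.9 to 34.9). miR-30d-3p had 3, 4 and 0 counts in EV, or 25.1 CPM pooled (10.1 to 51.7), and 15.2 CPM pooled in Intracellular libraries (13.2 to 17.4). A difference of either was not detectable at this depth. miR-30c-1-3p had 0, 1 and 0 counts in EV and 8, 36 and 58 in Intracellular libraries, and was the single arm that did not pass the filter on low counts. By the limit of 3 counts, which is lower than the exact interval's bound, a count of 0 allows up to 36.9 CPM in EV replicate 1 and 32.5 CPM in EV replicate 3, above its Intracellular levels of 4.35, 10.9 and 6.55 CPM.

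Of the 10 arms tested, 0 were called higher and 4 lower with TMM, where 25.6% and 17.1% of all tested miRNAs were called higher and lower. No arm was higher at an unadjusted p under 0.05 either, and 0 were called higher with DESeq2 or limma-voom. With total counts 1 was called higher and 0 lower, with 0 lower at an unadjusted p under 0.05, where 32.6% and 0.915% of all tested were called. The share called higher was thus below the background with both scalings. The median log2 fold change of the tested arms was -0.53 with TMM and 0.07 with total counts, where all 328 had medians of -0.06 and 0.55. The median of the 5 tested 5p arms was -0.65 with TMM and -0.08 with total counts, and that of the 5 tested 3p arms was 0.13 and 0.76. CPM without overlap between the groups, higher in EV, was seen for 2 of the 10 arms and 41.8% of all tested miRNAs, and lower in EV for 1 of the 10 arms and 3.66% of all tested.

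**Figure D2:**
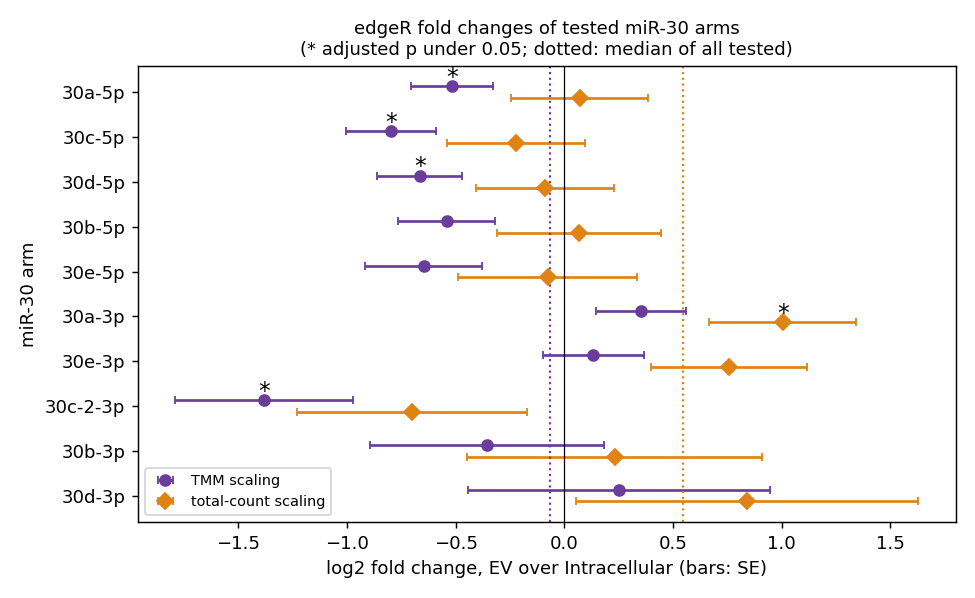
Log2 fold change of the 10 tested miR-30 arms, EV over Intracellular, from edgeR with TMM scaling (circles) and total-count scaling (diamonds), with the SE as bars and the median of all tested miRNAs as dotted lines. Asterisks mark an adjusted p under 0.05. The 5p arms lie below the median of all tested miRNAs with either scaling, and the 3p arms of miR-30a and miR-30e lie above it.

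Intracellular replicate 1 decided part of these values, so both scalings were also run without it on the same 328 miRNAs, for total counts as a choice made after the data were seen. Without it, total counts called miR-30a-3p (log2 fold change 0.84, SE 0.21, edgeR adjusted p = 0.00146) and miR-30e-3p (0.59, SE 0.22, edgeR adjusted p = 0.0326) higher. Total counts then also called miR-30c-5p (-0.50, SE 0.16, edgeR adjusted p = 0.00938) and miR-30d-5p (-0.38, SE 0.15, edgeR adjusted p = 0.0429) lower. These were 2 arms in each direction, where 36.0% of all tested miRNAs were called higher and 6.40% lower. With TMM, 5 arms were called lower without it, the 5p arms of miR-30a, miR-30c, miR-30d and miR-30e and miR-30c-2-3p, and 0 higher, where 17.7% of all tested were called lower and 27.7% higher. miR-30a-3p had an edgeR adjusted p of 0.0565 in that fit. With the filter applied again after leaving out Intracellular replicate 1, it was called higher with TMM (edgeR adjusted p = 0.0427).

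The balance of the arms was compared within each precursor, where the scaling of a library cancels. miR-30a gave 1.86, 2.91 and 2.62 counts of 5p for each count of 3p in EV replicates 1, 2 and 3, and 3.36, 4.45 and 5.59 in Intracellular replicates 1, 2 and 3. miR-30e gave 0.419, 0.343 and 0.5 in EV and 0.520, 0.708 and 0.9 in Intracellular libraries. In both precursors every EV library was nearer to the 3p arm than every Intracellular one. Both ratios also rose from Intracellular replicate 1 to 3, as did total counts. Within EV the ratio followed the order of total counts for miR-30a and not for miR-30e. The part of depth in these ratios was not tested. miR-30e was the only precursor of the family whose 3p arm exceeded its 5p arm, and it did so in all 6 libraries.

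The interaction of arm and group was tested by edgeR over the 145 precursors with at least 10 counts in both arms. For miR-30a the log2 of 5p over 3p differed by -0.86, EV minus Intracellular (SE 0.33, edgeR adjusted p = 0.0625), a 1.81-fold shift to 3p, and for miR-30e by -0.76 (SE 0.41, edgeR adjusted p = 0.249), a 1.70-fold shift. Neither passed the threshold. Of the 6 miR-30 precursors 0 were called and 1 had an unadjusted p under 0.05, as had 22.1% of all precursors. With adjustment, 6.90% of all precursors were called with a shift to 3p and 6.90% with a shift to 5p. The exact 2-sided permutation test on log2 ratios with 1 count added gave p = 0.1, the smallest that 3 against 3 libraries allow, for 4 of the 6 precursors. These were miR-30a, miR-30e, miR-30b and miR-30c-1. For miR-30b and miR-30c-1 no EV library had more than 3 counts of the 3p arm, so the added count weighs on their ratios. Without Intracellular replicate 1 miR-30a was called at -1.04 (SE 0.28, edgeR adjusted p = 0.00149) and miR-30e at -0.97 (SE 0.34, edgeR adjusted p = 0.0273). In that fit 12.8% of precursors were called with a shift to 3p and 7.09% with a shift to 5p. Over all single libraries left out, the difference of miR-30a ran from -1.04 to -0.66 (edgeR adjusted p = 0.00149 to 0.376). With the reads of miR-30a and miR-30e summed for each arm, which takes out any reads shared between these 2 precursors and was chosen after the data were seen, the ratio was 1.44, 1.66 and 1.73 in EV and 2.13, 2.84 and 3.46 in Intracellular libraries. The summed arms differed by -0.78 (SE 0.32, edgeR adjusted p = 0.0839). In the deposited sequences miR-30d-5p also matches miR-30a-5p at 21 of 22 positions, and reads shared between these remain in the summed value.

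The other precursors gave no firm value for EV. miR-30b gave 9.0, 10.0 and 8.33 counts of 5p for each of 3p in EV and 13, 10.2 and 9.49 in Intracellular libraries, with a log2 difference of -0.21 (SE 0.64, edgeR adjusted p = 0.842). miR-30c-5p over miR-30c-2-3p was 22.2, 62.7 and 36.0 in EV and 15.4, 28.1 and 33.7 in Intracellular libraries, with a difference of 0.55 (SE 0.53, edgeR adjusted p = 0.565). For miR-30d the difference was -0.96 (SE 0.74, edgeR adjusted p = 0.473), from 7 EV counts of the 3p arm. For miR-30c-1, with 1 EV count, it was 0.73 (SE 1.49, edgeR adjusted p = 0.755) and its sign depended on the count added to each arm. In 4 of the 6 precursors both arms had counts in every library, and with no count added the ratios of 2 of these, miR-30a and miR-30e, lay nearer to 3p in EV without overlap and those of 0 nearer to 5p. Of all 66 such precursors 25.8% lay nearer to 3p and 19.7% nearer to 5p without overlap. The median log2 difference was -0.49 over the 6 and -0.23 over all precursors.

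**Figure D3:**
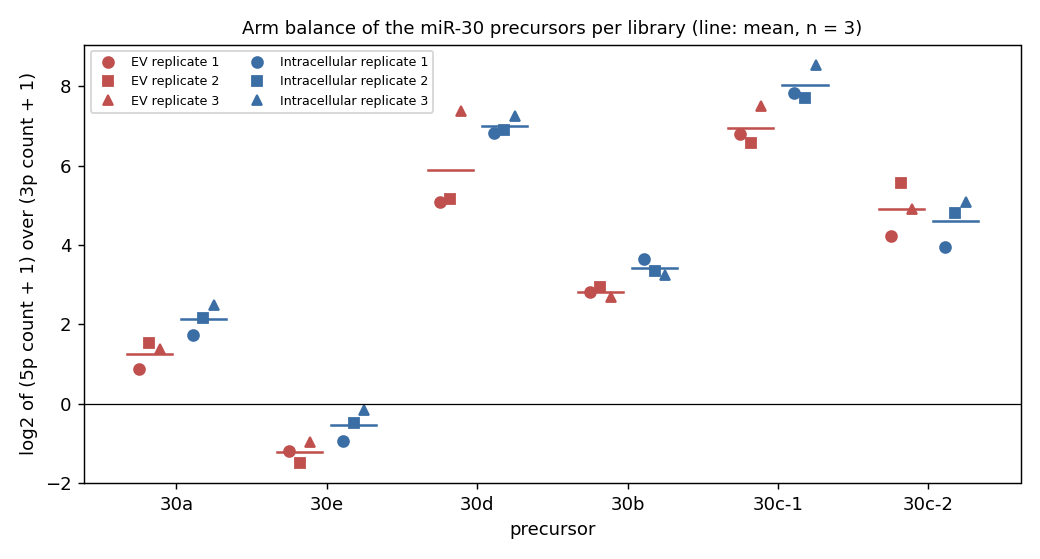
Log2 of the 5p over the 3p count, with 1 added to each, for the 6 miR-30 precursors in the EV (red, left) and Intracellular (blue, right) libraries, with the mean as a line; values below 0 mean more 3p than 5p. miR-30a and miR-30e are lower in every EV library than in every Intracellular one, and miR-30e lies below 0 throughout. miR-30b is also plotted lower in every EV library, from 3 counts of its 3p arm in each, but its groups overlap with no count added. Where EV had 0 or 1 counts of a 3p arm, as for miR-30c-1, the added count caps the EV points, so those groups are not compared here; miR-30c-5p serves both miR-30c precursors.

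The make-up of the family was compared as the share of each arm in its counts, which is also free of library scaling. miR-30a-3p made up 10.7% ± 2.91 of miR-30 counts in EV and 5.77% ± 1.30 in Intracellular libraries, and miR-30e-3p made up 6.93% ± 1.59 in EV, against 4.49% ± 0.867 in Intracellular libraries (SD, n = 3). miR-30c-5p made up 24.1% ± 3.69 in EV and 29.1% ± 0.651 in Intracellular libraries. For these 3 arms the groups did not overlap (exact permutation p = 0.1 each, the smallest possible, and 0.367 adjusted over the 11 arms). miR-30a-5p made up 25.3% ± 1.74 in EV and 24.8% ± 0.758 in Intracellular libraries (exact permutation p = 0.7). miR-30d-5p made up 24.4% ± 1.32 in EV and 26.6% ± 1.72 in Intracellular libraries (exact permutation p = 0.2). Among the 5p arms alone, no arm's share was without overlap, miR-30c-5p taking 25.8% to 33.0% in EV and 32.2% to 33.8% in Intracellular libraries.

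**Figure D4:**
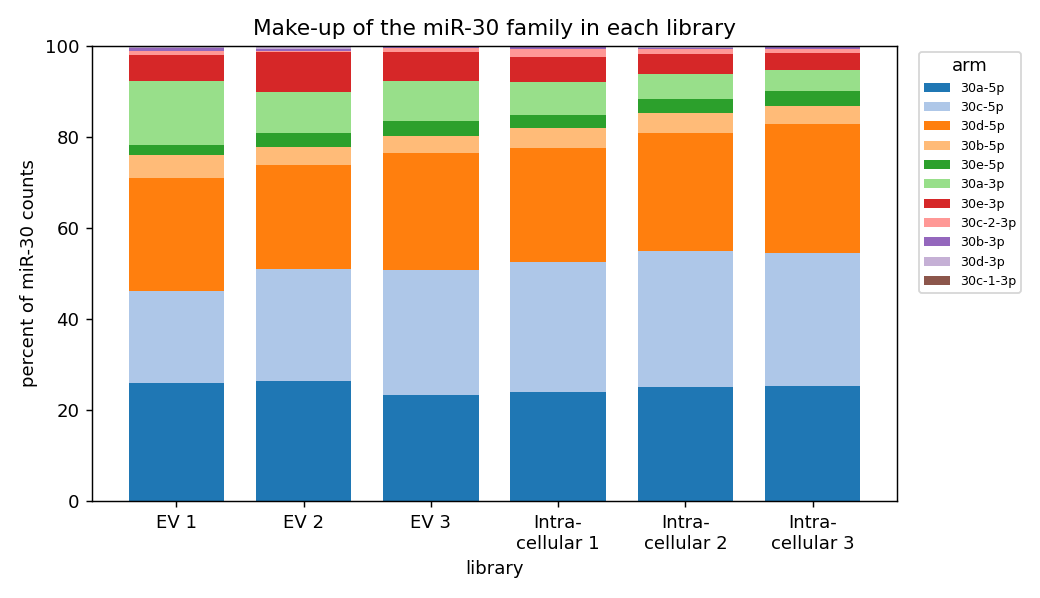
Percent of all miR-30 counts taken by each arm in the 3 EV libraries (left) and 3 Intracellular libraries (right). The 3p arms of miR-30a (light green) and miR-30e (red) take a larger part in every EV library than in any Intracellular one.

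The order of levels was alike in the lower ranks and unsettled at the top. Mature arms differ little in length, so CPM needed no length term, but adapter ligation favours some sequences over others. In EV the mean CPM ran from miR-30a-5p over miR-30d-5p to miR-30c-5p, and neighbours in this order overlapped. In Intracellular libraries miR-30c-5p came before miR-30d-5p and miR-30a-5p, in that order within all 3 libraries, although their ranges overlapped across libraries. miR-30c-5p over miR-30a-5p was 0.776, 0.922 and 1.18 in EV and 1.19, 1.19 and 1.14 in Intracellular libraries, so that the groups overlapped. Then came miR-30a-3p, miR-30e-3p, miR-30b-5p and miR-30e-5p in both groups, with miR-30a-3p and miR-30e-3p overlapping. In Intracellular libraries miR-30e-3p and miR-30b-5p, and miR-30b-5p and miR-30e-5p, also overlapped. The genomic neighbours miR-30d and miR-30b differed in level, miR-30d-5p having 5.04, 5.90 and 6.68 times the counts of miR-30b-5p in EV and 5.63, 6.08 and 7.35 times in Intracellular libraries. miR-30c-5p had 8.54, 8.17 and 8.57 times the counts of miR-30e-5p in EV and 10.0, 9.88 and 8.56 times in Intracellular libraries.

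The letters GGAG and CCCU, which have been linked in other cells to export in vesicles, were looked for in the matched mature strands. GGAG lay in 2 of the 6 matched miR-30 arms, miR-30c-1-3p and miR-30c-2-3p, where it lies within the seed, and CCCU in 0. GGAG was found in 8.08% and CCCU in 9.52% of 693 rat mature miRNAs of the RefSeq table. Of the 267 known tested miRNAs with a RefSeq sequence, 24 held GGAG, of which 8 were called higher and 3 lower with TMM, with a median log2 fold change of 0.16. Of all tested miRNAs, which also hold predicted ones, 25.6% were called higher and 17.1% lower. A fit of the 290 known miRNAs alone called 67 higher and 37 lower. CCCU was held by 18, of which 5 were called higher and 7 lower, with a median of -0.49, and the median of the 267 was -0.14. One of the 3 lower calls with GGAG was miR-30c-2-3p. A match describes the letters alone.

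Other miRNAs linked to the same tissue biology were counted from lists, against a background of 25.6% of all tested miRNAs called higher and 17.1% lower with TMM, and of 32.6% higher and 0.915% lower with total counts. Of 7 miRNAs known to repress Ctgf, 4 were tested, of which 1 was called higher and 2 lower with TMM, and 1 higher and 0 lower with total counts. miR-19b-3p of the miR-17-92 cluster averaged 154 ± 38.6 CPM over EV and 39.8 ± 11 CPM over Intracellular libraries (SD, n = 3; TMM log2 fold change 1.31, edgeR adjusted p = 0.00237). miR-26a-5p averaged 24764 ± 2040 CPM over EV and 26887 ± 5476 CPM over Intracellular libraries (log2 fold change -0.75 with TMM, edgeR adjusted p = 0.0213, and -0.12 with total counts). miR-145-5p, a miRNA of mesenchymal cells, averaged 3024 ± 70.5 CPM over EV and 2863 ± 908 CPM over Intracellular libraries (log2 fold change -0.53 with TMM, edgeR adjusted p = 0.0249, and 0.08 with total counts). Of 10 fibrosis-related miRNAs 8 were tested, of which 4 were called higher and 3 lower with TMM, and 4 higher and 0 lower with total counts. Among them miR-21-5p (log2 fold change -0.97, edgeR adjusted p = 0.0319) and miR-199a-5p (-1.04, edgeR adjusted p = 0.00300) were called lower with TMM, at -0.24 and -0.39 and without a call with total counts. The third lower call was let-7d-5p (-0.87 with TMM, edgeR adjusted p = 0.00876, and -0.14 with total counts). The collagen repressor miR-29a-3p averaged 4930 ± 135 CPM over EV and 996 ± 314 CPM over Intracellular libraries, a TMM log2 fold change of 1.70 (edgeR adjusted p = 3.88e-07).

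The 5 known miRNAs whose profile over the 6 libraries was nearest to that of the summed family were taken from 194 with at least 50 CPM. Likeness was the distance between centred log2(CPM + 1) values, with a median of 1.04 over the 194. The nearest were miR-351-5p (0.264), miR-145-5p (0.277), miR-151-5p (0.277), miR-103-3p (0.343) and miR-17-5p (0.347). With TMM miR-351-5p, miR-145-5p and miR-103-3p were called lower in EV (edgeR adjusted p = 0.0333, 0.0249 and 0.00876), while miR-151-5p and miR-17-5p were not (edgeR adjusted p = 0.0883 and 0.0696). Of all tested miRNAs 17.1% were called lower. miR-351-5p was at 1515, 1421 and 1278 CPM in EV and at 791, 1600 and 1550 CPM in Intracellular libraries. As in the miR-30 family, its Intracellular replicate 1 was lowest and the other Intracellular libraries were highest. This likeness comes with the choice by profile and is no separate result.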

How the data were processed

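Whole-number counts per mature miRNA were deposited by the authors. The authors also deposited TPM values, which are the same counts brought to a sum of 1000000 in each library without regard to length. The submitters' processing notes name cutadapt and the build Rnor_6.0. How reads were aligned, assigned to miRNAs and counted is not given in the sources used here. Per the labels' protocols, adapters were ligated to both ends of the RNA and the cDNA was amplified by PCR. No molecular identifiers are named.

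The group and replicate number in each column name gave its sample. Counts were tested with edgeR 4.0.16 (R 4.3.3, glmQLFit and glmQLFTest, robust dispersions, TMM, filterByExpr with a minimum count of 10 and a minimum total of 15), 2-sided, with Benjamini-Hochberg adjustment over all 328 tested miRNAs. SE is the absolute log2 fold change over the root of F. Arm balance was tested as the interaction of arm and group with library as a block. Single values were compared by exact permutation.

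The members and lists were chosen with earlier results of these data known. Every miR-30 arm is named, with the 5 miRNAs of nearest profile. Of the Ctgf and fibrosis lists, the 3 called members with the largest mean CPM in EV are named, and let-7d-5p. Members of the cell type lists are named in part. Alternatives were other scalings, filters, DESeq2 1.42.0, limma 3.58.1 (voom, and log2(TPM + 1) or log2(TPM + 0.1)), a replicate block and each library left out. Total counts without Intracellular replicate 1 and the summed arms were added after the data were seen.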

Additional observations from a re-analysis of the deposited data

How the results depend on the processing

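In all 140 miRNAs were called, against 268 with no filter and 87 with a mean EV count of at least 10. The number of arms called lower (4) was 2 with that filter and with limma-voom, 0 with total counts and on log2(TPM + 1) or log2(TPM + 0.1), where 1 was called higher, and 2 with 2 higher with total counts without Intracellular replicate 1. It was 6 with upper quartile scaling, with TMM without the 10 most abundant and with no filter, where miR-30b-5p and miR-30e-5p were added, and 5 with DESeq2. The lower calls over all tested miRNAs moved as well. Of 328 they were 56 with TMM, 92 with upper quartile scaling, 62 with TMM without the 10 most abundant, 51 with DESeq2 and 46 with limma-voom. They were 71 of 1071 with no filter and 33 of 186 with the mean EV count filter. With total counts, log2(TPM + 1) and log2(TPM + 0.1) they were 3, 2 and 3 of 328, and 21 with total counts without Intracellular replicate 1. Higher calls in the same fits, in this order, were 107, 104, 102 and 118 of 328. Leaving out single libraries gave 77 to 121 calls in all with the filter applied again and 80 to 149 with the tested rows kept (91 without EV replicate 2), 0 to 1 arms higher, 1 to 5 lower, 0 to 2 precursors called (0 with all libraries), 3 to 6 arms with non-overlapping family shares and a family share difference of -0.119 to 0.114 percentage points (EV minus Intracellular). That difference was 0.0241 with all libraries and -0.570 without the 10 most abundant miRNAs in the denominator. Among 5p arms alone 0 shares were without overlap, against 3 with both arms, and the share difference of miR-30e-5p turned to 0.0172. The cause of these moves was not tested.

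Several directions turned. With total counts, log2(TPM + 1) and log2(TPM + 0.1) the log2 fold change was 0.0701, 0.15 and 0.15 for miR-30a-5p, 0.23, 0.36 and 0.37 for miR-30b-3p, and 0.0670, 0.12 and 0.12 for miR-30b-5p. On log2(TPM + 1) and log2(TPM + 0.1) it was 0.0091 and 0.0092 for miR-30d-5p, 0.011 and 0.011 for miR-30e-5p, and -0.31 and -1.34 for miR-30d-3p. With upper quartile scaling it was -0.013 for miR-30d-3p and -0.13 for miR-30e-3p, which was at -0.0069 with no filter. Without single libraries it was -0.32 to 0.72 for miR-30d-3p and -0.14 to 0.27 for miR-30e-3p with the filter applied again, and -0.28 to 0.78 and -0.10 to 0.32 with the tested rows kept (-0.019 for miR-30d-3p without EV replicate 1). The family share difference was then -0.135 to 1.47 for miR-30a-5p, -0.346 to 0.198 for miR-30b-5p and -0.405 to 0.0192 for miR-30e-5p. The arm difference of miR-30c-1 was -1.08 with the exact permutation test and 1 count added to each arm, and so under the replicate block, where the added count caps the EV ratios.

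Whether equal replicate numbers pair the samples is not given in the sources used here. Deviations of same-numbered libraries correlated at 0.0160 to 0.0243, and 0 of 3 correlated best with its own number. With 3 libraries in each group and the low EV depth, these values cannot exclude a pairing. With the replicate block 5 arms were lower, miR-30e-5p being added (edgeR adjusted p = 0.0492), and 133 miRNAs were called in all. Of all 328 tested miRNAs the block called 46 lower and 87 higher. With the block the exact sign permutation of the arm ratios cannot go below p = 0.25. The EV depth limits the 3p arms of miR-30b, miR-30c and miR-30d, with 1 to 13 EV counts each.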
